A study of Mus musculus with 12 samples.

Results

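The mitochondrial ribosome, or mitoribosome, is built from proteins that are encoded in the nucleus, and the transcripts of these proteins were examined in MLL-AF9 leukemia cells with and without STAT3β. Members were chosen by name alone, as rows of the gene table whose symbol starts with Mrpl (large subunit) or Mrps (small subunit) and a number, without pseudogenes and with a mean of at least 10 normalized counts over the 12 libraries. Of the 24454 rows, 77 carried such a symbol, and 76 of these were among the 11476 genes that reached the mean and were tested. Mrpl23 was the row left out, with a mean of 4.86 normalized counts, and Mrps36 lay just inside with 13.1.

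Fetal liver cells of wildtype (WT) mice or of mice lacking the C-terminally truncated STAT3 isoform STAT3β (Δβ) had been transduced with a retrovirus carrying the MLL-AF9 fusion oncogene and a Venus reporter. They were transplanted intravenously into male NSG mice (NOD.Cg-Prkdc scid Il2rg tm1Wjl/SzJ) of 6 to 8 weeks, a strain without B, T and NK cells. Venus-positive blasts were sorted from the spleen (SP) and bone marrow (BM) of diseased recipients and sequenced as poly-A enriched libraries. MLL-AF9, the reporter and the recipient strain were shared by all 4 groups (WT SP, Δβ SP, WT BM and Δβ BM, with 3 replicates each). The labels do not say whether replicates came from separate animals or from separately transduced cells, so p-values measure the spread between these samples only.

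Mitoribosomes translate the few messages that mitochondrial DNA encodes, which specify core subunits of the respiratory chain and of ATP synthase. The large subunit joins amino acids and the small subunit reads the message. Part of their proteins have a counterpart in the bacterial ribosome, and others are found only in mitochondria. Myeloid leukemia cells are known for their need of mitochondrial translation. The members comprised 29 large-subunit proteins with a bacterial homolog, 20 large-subunit proteins specific to mitochondria, 16 small-subunit proteins with a homolog and 10 specific to mitochondria. Mrps36, the remaining member, is counted today with the 2-oxoglutarate dehydrogenase complex and not with the mitoribosome.

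Nuclear genes for mitochondrial proteins are known for promoters with sites of NRF1, of GABP and other ETS factors, and of YY1. RefSeq promoter entries (GRCm38.p6, 250 bases before to 50 bases after the start) were matched to 67 of the 76 members and gave 73 promoters, which were searched on either strand for the letters GCGCA and GCGC separated by 1 base of any kind (NRF1), CCGGAAG (ETS), AAGATGGCG (YY1), CACGTG (E-box) and GGGCGGG (SP1). The 4 stretches below, which hold no annotated exon and end at the base before the start, are shown because Mrpl45 and Mrpl44 carry NRF1 letters, the Mrpl43 stretch carries paired ETS letters and the Mrpl42 stretch SP1 letters, and all 4 genes recur below. Capitals mark the matches, and none of them overlapped. The searched promoters held further matches outside these stretches, for NRF1 in Mrpl45, for SP1 in Mrpl43 and for YY1 in Mrpl42.
Mrpl45, chr11:97315586-97315715, plus strand: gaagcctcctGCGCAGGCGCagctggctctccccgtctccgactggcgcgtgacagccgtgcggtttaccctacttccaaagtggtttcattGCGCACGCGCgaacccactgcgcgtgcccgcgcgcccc
Mrpl44, chr1:79775888-79776017, plus strand: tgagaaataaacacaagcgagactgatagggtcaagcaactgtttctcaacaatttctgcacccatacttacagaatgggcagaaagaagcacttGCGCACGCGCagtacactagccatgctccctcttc
Mrpl43, chr19:45006443-45006557, minus strand: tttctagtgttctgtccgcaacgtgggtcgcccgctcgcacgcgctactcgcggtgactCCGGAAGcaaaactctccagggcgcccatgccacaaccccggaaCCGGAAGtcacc
Mrpl42, chr10:95501950-95502079, minus strand: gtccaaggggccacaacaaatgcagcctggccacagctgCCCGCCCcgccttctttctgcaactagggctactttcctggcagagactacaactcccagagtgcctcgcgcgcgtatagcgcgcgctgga

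ETS letters were present in 34.2% of the members' promoters, against 18.5% of the promoters of tested genes and 8.86% of all 32851 promoters. For NRF1 the shares were 17.8%, 10.3% and 4.6%, and for YY1 11%, 3.19% and 1.40%. The E-box letters were held by 9.59% of the members' promoters and 10.1% of those of tested genes, and the SP1 letters by 42.5% and 46.1%. By gene, 25 members held ETS letters, 13 NRF1 letters, 8 YY1 letters and 4 both NRF1 and ETS letters, while 13 held none of the 5 motifs. These matches describe letters and not bound sites.

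**Figure D1:**
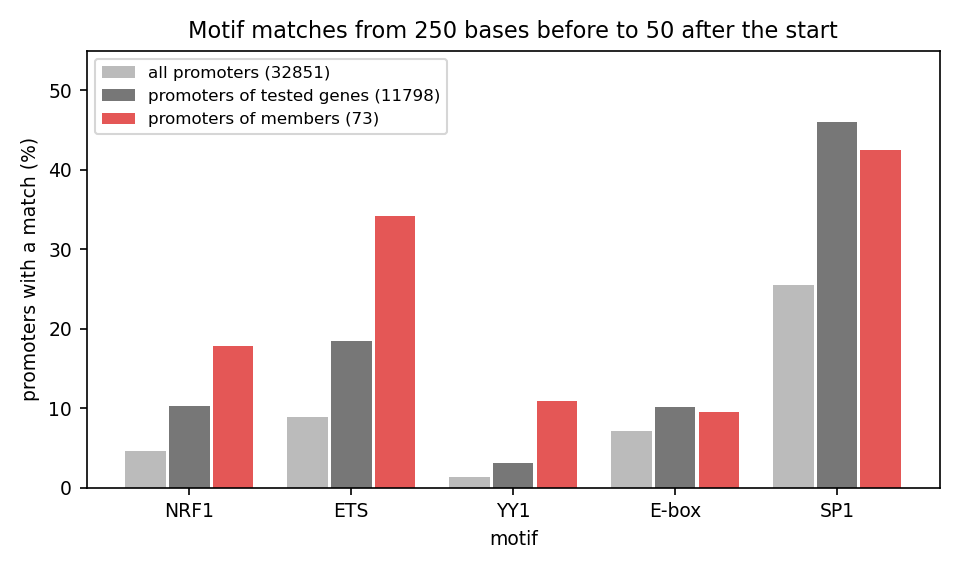
Share of promoters with at least 1 match (vertical axis, percent) for 5 motifs (horizontal axis), in all promoters, those of tested genes and those of members. The members' bars stand above both others for NRF1, ETS (34.2%) and YY1 (11%), and near those of tested genes for the E-box and SP1.

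Depth was similar in all libraries, with 9001051 to 13859727 reads on genes. The ribosomal RNA precursor Rn45s took 2.48% and 2.41% of the reads in WT SP replicates 2 and 3 and 0.178% to 0.725% elsewhere. All 15 blast markers, such as Hoxa9, Meis1 and Mpo, were among the tested genes, and their summed level was 75817 to 207366 normalized counts. Of 8 erythroid markers none reached the tested mean, with sums of 4.65 to 14.9 normalized counts, and 2 of 8 macrophage markers, 2 of 5 B cell markers and 2 of 7 T and NK cell markers did. The macrophage sum was 2690 to 4681 in WT SP and 2872 to 4569 in Δβ SP. It was highest in WT BM, with 5116 to 7994, and was 3713 to 4758 in Δβ BM. The T and NK cell sum was 29.6, 86.9 and 845 in WT SP, 142 to 262 in Δβ SP and 93.5 to 585 in BM. Of 8 stromal and endothelial markers 1 was tested, with sums of 1055 to 1202 in WT SP and 1406 to 2525 in Δβ SP. In BM these sums were 796 to 1290 in WT and 1181 to 1879 in Δβ. Of 5 megakaryocyte markers 3 were tested, with sums of 85.5 to 90.3 in WT SP. These were 58.9 to 60.9 in Δβ SP and 48.4 to 107 in BM. All 9 neutrophil granule markers were expressed, and their sum ranged from 142569 to 353293 in WT SP and from 97444 to 120386 in Δβ SP, and from 146240 to 417950 in the WT and from 116898 to 241481 in the Δβ libraries of BM. In such bulk samples, fewer cells of a type and less RNA per cell cannot be told apart.

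Levels between genes were compared as normalized counts per kb of annotated exon. Mrpl33 stood highest with 3211 per kb, far above Mrpl18 with 794 and Mrps15 with 659. At the low end were Mrps36 with 18.7, Mrps33 with 29.1 and Mrpl47 with 42.7 per kb. This order depends on the annotated exon length, which was 478 bases for Mrpl33 and 3364 bases for Mrpl47. Mrpl33, Mrpl18 and Mrpl47 are large-subunit proteins with a bacterial counterpart, and so is Mrps15 in the small subunit, whereas Mrps33 has none. Reads could be shared with other annotated transcripts, since 53 of the 77 rows had some 50-base windows in common with another gene. More than 50% of the windows were shared in Mrpl53, Mrps34 and Mrps25, so that the values of these 3 genes are uncertain. The share was 17.3% in Mrps36, 13.3% in Mrps33 and 23.3% in Mrpl47.

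The level of the members as a set was compared library by library. Each gene was centred on its own mean log2 value (log2 of the normalized count plus 1) over the 12 libraries. Averaged over the 76 members, the WT SP libraries then lay at -0.12, -0.18 and 0.16 and the Δβ SP libraries at 0.05, 0.28 and 0.04. The WT BM libraries lay at -0.03, -0.11 and -0.08 and the Δβ BM libraries at -0.07, 0.14 and -0.09. WT SP replicate 3 stood apart from the other WT SP libraries, with 68 of 76 members above their own mean against 24 in replicate 1 and 7 in replicate 2. Δβ SP replicate 2 had 73 members above their mean and Δβ BM replicate 2 had 66. The 3 WT BM libraries were close to each other, with 29, 16 and 22 members above their mean. Group means ± SD of this average (n = 3) were -0.04 ± 0.18 for WT and 0.13 ± 0.13 for Δβ libraries of SP, and -0.07 ± 0.04 for WT and -0.01 ± 0.13 for Δβ libraries of BM.

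The same average over the 9 neutrophil markers was 0.84, 1.5 and -0.81 in WT SP and -0.99, -0.58 and -0.93 in Δβ SP. In WT BM it was -0.25, -0.01 and 1.6, and in Δβ BM 0.44, -0.02 and -0.78. WT SP replicate 3 thus had the highest member level and the lowest neutrophil level of its group, while WT BM replicate 3 had the highest neutrophil level of its group and a member level between those of the other WT BM libraries. The part of neutrophil genes in the values below was not tested.

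**Figure D2:**
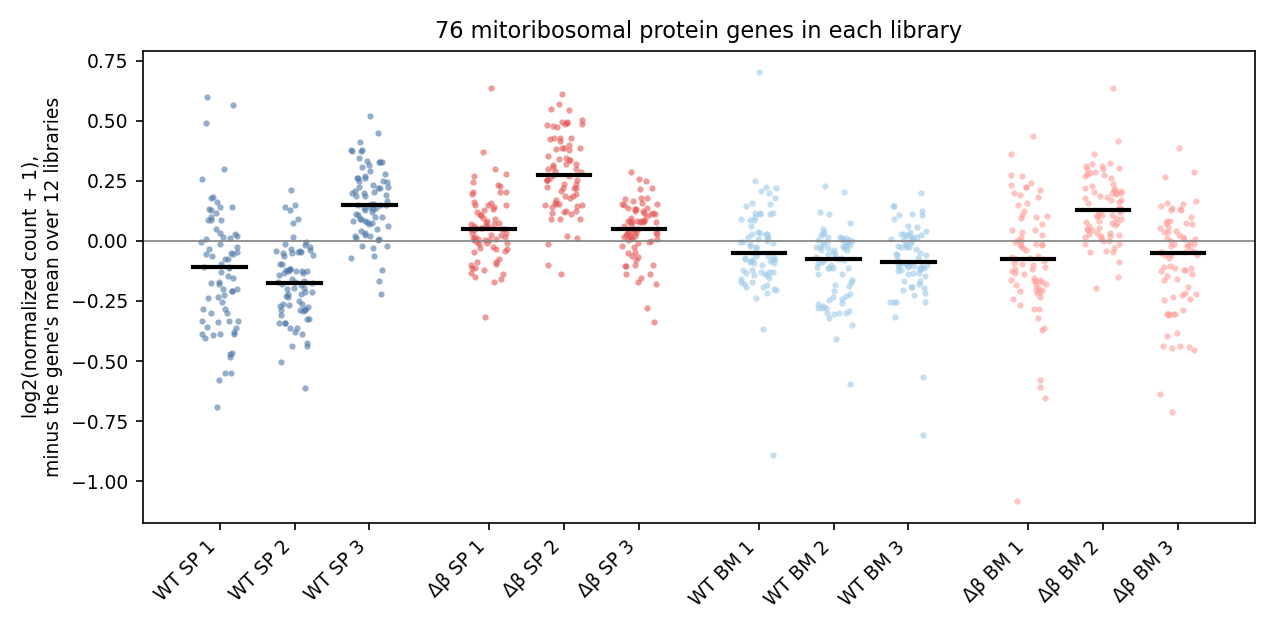
Each point is 1 of 76 mitoribosomal protein genes in 1 library (horizontal axis), as log2 of the normalized count plus 1 after subtraction of the gene's mean over 12 libraries (vertical axis), and black lines are medians. WT SP 3, Δβ SP 2 and Δβ BM 2 lie above the other libraries of their groups.

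In SP, no mitoribosomal protein gene passed the test for a difference between Δβ and WT blasts, although 64 of 76 had a log2 fold change above 0. The median over the members was 0.19 on the log2 scale, and the range was -0.17 to 0.77. Over all tested genes 48.1% were above 0 and the median was -0.01. With an adjusted p under 0.05 (limma, Benjamini-Hochberg adjustment over 11476 genes), 0 members and 12 genes in all, or 0.105%, were called. An unadjusted p under 0.05 was reached upward by 4 members, where the share among all tested genes was 5.93%, and downward by 0 members, where it was 8.96%. On recovered reads, edgeR called 0 members and 5 genes in all (0.0436%), and DESeq2 called 0 members and 479 genes (4.18%).

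The 4 genes were Mrps6, Mrpl50, Mrpl39 and Mrpl49. Mrps6, the counterpart of bacterial S6 in the small subunit, had 54.7, 62.5 and 89.3 normalized counts in WT SP and 139, 127 and 88.6 in Δβ SP. It differed by 0.77 on the log2 scale (standard error, SE, 0.29, adjusted p = 0.277, limma), and the highest WT value exceeded the lowest Δβ value. Annotated exons of Mrps6 overlap those of Slc5a3, a myo-inositol transporter gene, and 17.3% of the Mrps6 windows are shared with other transcripts. Slc5a3 itself had 17.1, 20.1 and 27.4 normalized counts in WT SP and 62.0, 51.5 and 39.5 in Δβ SP (log2 fold change 1.21, SE 0.35, adjusted p = 0.221, limma), so that both values pointed the same way.

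Mrpl50 and Mrpl39 are proteins of the large subunit without a bacterial counterpart. Mrpl50 had 334, 333 and 389 normalized counts in WT SP and 404, 548 and 452 in Δβ SP, without overlap of the groups (log2 fold change 0.40, SE 0.15, adjusted p = 0.278, limma). For Mrpl39 the WT SP libraries held 345, 327 and 401 normalized counts and the Δβ SP libraries 391, 548 and 454 (log2 fold change 0.37, SE 0.15, adjusted p = 0.295, limma). The lowest Δβ value of Mrpl39 lay below the highest WT value. Mrpl49, also specific to mitochondria, showed 397, 460 and 430 normalized counts in WT SP and 502, 621 and 468 in Δβ SP, a difference of 0.30 on the log2 scale (SE 0.13, adjusted p = 0.336, limma). Groups that did not overlap with Δβ on top were seen in Mrpl16, Mrpl49, Mrpl50 and Mrps12, that is 4 of 76 members against 7.92% of all tested genes, and no member had WT on top, against 9.37%.

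All 4 structural groups had medians above 0 in SP. The median log2 fold change was 0.17 for large-subunit proteins with a bacterial homolog (23 of 29 above 0), 0.16 for large-subunit proteins specific to mitochondria (18 of 20), 0.21 for small-subunit proteins with a homolog (14 of 16) and 0.23 for small-subunit proteins specific to mitochondria (9 of 10). Within these groups the highest values were those of Mrpl19 (0.36), Mrpl50 (0.40), Mrps6 (0.77) and Mrps34 (0.47), and the lowest those of Mrpl27 (-0.17), Mrpl54 (-0.10), Mrps9 (-0.05) and Mrps23 (-0.10). Of these, Mrps34 shares 71.8% of its windows with other transcripts, Mrpl19 37.0% and Mrpl27 26.9%, so that their values are less certain. The sign of Mrps9 was positive after rescaling by trimmed means or quantiles. Differences between the groups were not tested.

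The number of members called in SP depended on WT SP replicate 3. Without this library, 68 members were above 0, against 48.2% of all tested genes, with a median of 0.28, and 6 members were called together with 1884 of all tested genes, or 16.4%. These members, named here after their values were seen, were Mrps6 (log2 fold change 0.97, adjusted p = 0.0493), Mrpl15 (0.51, 0.0467), Mrpl44 (0.50, 0.0335), Mrpl42 (0.47, 0.0451), Mrpl35 (0.43, 0.0450) and Mrpl45 (0.42, 0.0312) by limma. Mrpl45, whose product lies near the exit of the nascent chain, was at 372, 343 and 508 normalized counts in WT SP and at 452, 498 and 483 in Δβ SP. Mrpl44 was at 399, 437 and 721 normalized counts in WT SP and at 574, 664 and 546 in Δβ SP. In both genes WT SP replicate 3 lay above every Δβ SP library. Without Δβ SP replicate 2 the median over the members was 0.10, with 60 of 76 above 0, and without WT SP replicate 2 it was 0.11, with 55 above 0. Without both WT SP libraries rich in Rn45s, WT SP is replicate 1 alone, and limma takes its spread to be that of the other groups. Against this single library 61 members were above 0, where 48.2% of all tested genes were, and 0 were called, where 13% of all were.

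**Figure D3:**
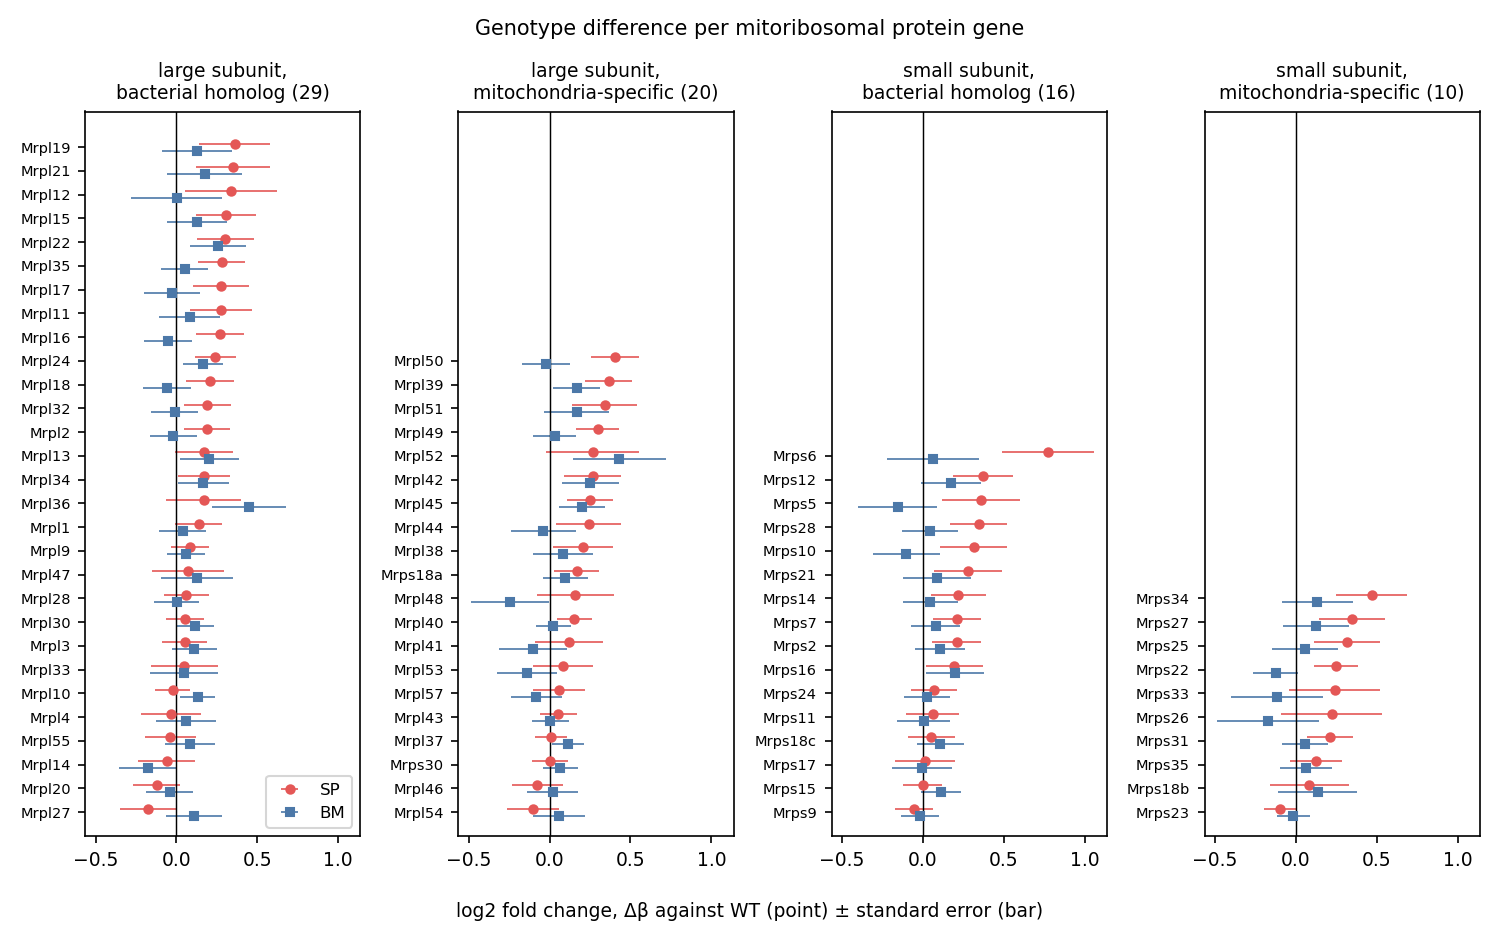
Log2 fold change of Δβ against WT (horizontal axis) with its SE (bars) in SP (red circles) and BM (blue squares) for the 75 mitoribosomal proteins, by subunit and homology and ordered by the SP value. Most SP points lie right of 0 up to Mrps6 at 0.77, while BM points scatter closer to 0. Values of all tested genes, which are not drawn, also lay closer to 0 in BM.

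In BM, no member passed the test either, and the values lay closer to 0 than in SP, as did those of all tested genes. The median absolute log2 fold change over the members was 0.19 in SP and 0.09 in BM. Over all tested genes it was 0.24 in SP and 0.13 in BM. The log2 fold change in BM was above 0 in 55 of 76 members, against 45.3% of all tested genes, with a median of 0.06 against -0.02. Of the 76 members 0 were called, against 8 genes or 0.0697% in all, and 0 had an unadjusted p under 0.05, against 1.25% of all tested genes upward and 1.33% downward. edgeR called 0 members and 8 genes (0.0697%), and DESeq2 0 members and 37 genes (0.323%). Without Δβ BM replicate 2, the library with the highest member level in BM, 39 members were above 0 and the median was 0.000597.

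Mrpl36, the counterpart of the small bacterial protein L36, had the smallest p in BM. Its levels were 211, 379 and 369 normalized counts in WT BM and 403, 457 and 409 in Δβ BM (log2 fold change 0.45, SE 0.23, adjusted p = 1.0, limma), and 0.18 without the low WT BM replicate 1. Mrpl52 had 198, 169 and 119 normalized counts in WT BM and 237, 259 and 160 in Δβ BM, with overlap (log2 fold change 0.43, SE 0.29). Mrpl22 had 101, 101 and 89.6 in WT BM and 129, 106 and 115 in Δβ BM without overlap (log2 fold change 0.26, SE 0.17). For Mrpl42, whose promoter stretch is shown above, the values were 368, 344 and 397 in WT BM and 439, 484 and 400 in Δβ BM, again without overlap (log2 fold change 0.25, SE 0.18). The BM groups did not overlap, with Δβ on top, in 6 members (Mrpl22, Mrpl36, Mrpl37, Mrpl39, Mrpl42 and Mrpl45) against 3.5% of all tested genes, and in 0 with WT on top against 4.13%.

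The lowest BM values of the structural groups were those of Mrpl14 (-0.18), Mrpl48 (-0.24), Mrps5 (-0.16) and Mrps26 (-0.17), and the highest those of Mrpl36 (0.45), Mrpl52 (0.43), Mrps16 (0.20) and Mrps18b (0.13). The sign of 3 of these turned when a single library was left out. Mrps26 had 267 normalized counts in Δβ BM replicate 1 and 708 and 684 in the other Δβ BM libraries, against 572, 566 and 574 in WT BM, and its log2 fold change without that library was 0.29. Mrps5 turned from -0.16 to 0.11 without the same library, and Mrpl48 from -0.24 to 0.03 without Δβ BM replicate 3.

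Over both organs, where same-numbered SP and BM libraries were averaged within each genotype and 3 means compared with 3, 66 of 76 members were above 0 against 46.5% of all tested genes. The median log2 fold change was 0.10 against -0.02, and 0 members were called against 17 genes or 0.148% in all. With an unadjusted p under 0.05 there were 0 members, against 3.41% of all tested genes upward and 6.5% downward. The smallest p values belonged to Mrpl39 (log2 fold change 0.27, SE 0.12, adjusted p = 0.529), Mrpl24 (0.20, 0.10, 0.543), Mrpl22 (0.28, 0.14, 0.547) and Mrpl45 (0.22, 0.11, 0.550), all by limma. Mrpl24 and Mrpl22 are large-subunit proteins with a bacterial homolog. The averaged groups did not overlap in Mrpl22, Mrpl39, Mrpl49, Mrps12 and Mrps2, that is 5 members, all with Δβ on top, against 6.61% of all tested genes, and 0 had WT on top, against 9.02%. Without number 2 of the Δβ libraries 51 members were above 0 and the median was 0.04.

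The genotype differences of the 2 organs were compared directly. The difference in SP exceeded that in BM in 54 of 76 members, with a median of 0.11 against 50% and a median of -0.00025 over all tested genes. limma called no member and no other gene (0%), and 0 members had an unadjusted p under 0.05, against 1.25% upward and 1.95% downward. edgeR called no gene (0%), and DESeq2 called 0 members and 5 genes (0.0436%). The members' genotype difference was therefore not shown to differ between the organs.

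**Figure D4:**
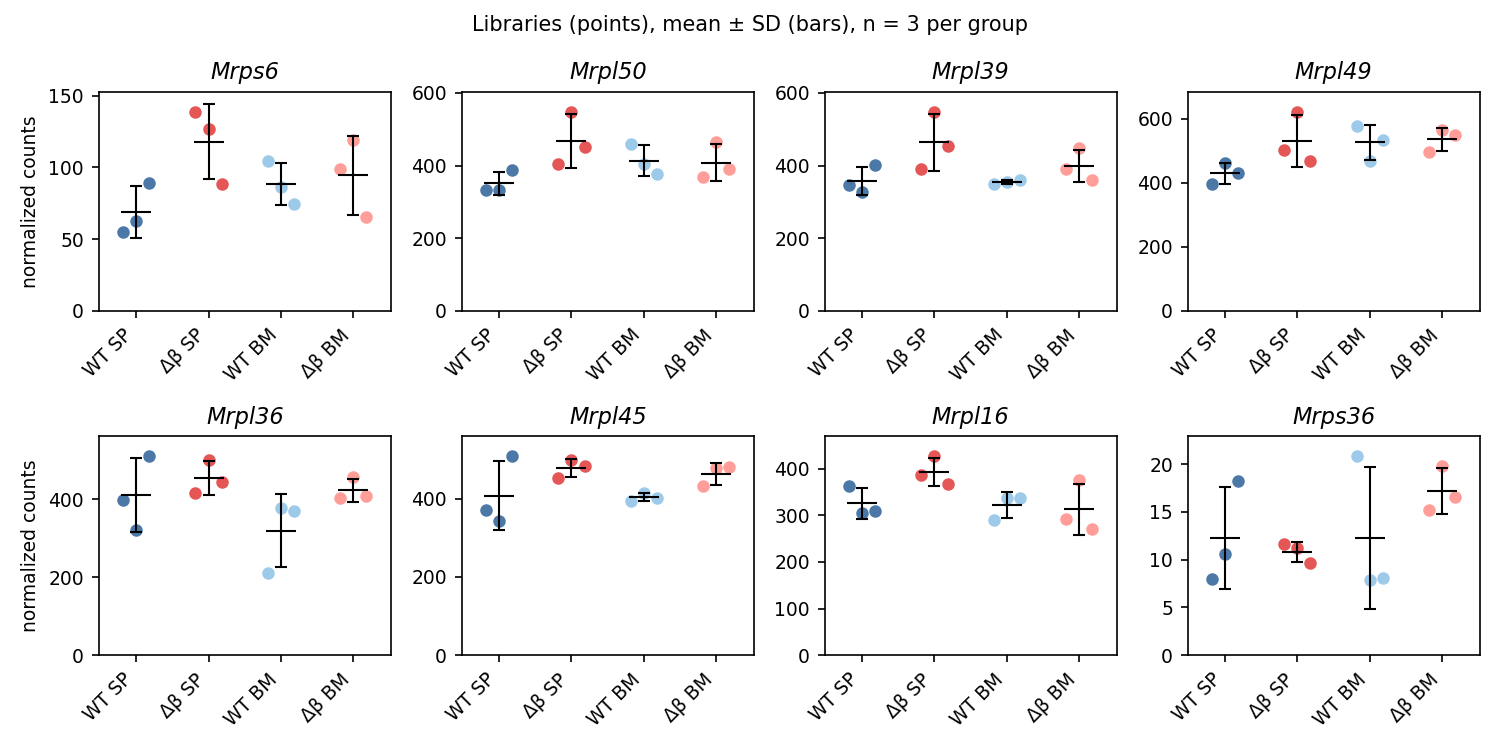
Normalized counts (vertical axes, starting at 0) of 8 members in the 4 groups (horizontal axes), with points for libraries and bars for mean ± SD (n = 3). Mrpl50 separates WT SP (333 to 389) from Δβ SP (404 to 548), Mrpl45 separates WT BM from Δβ BM, and Mrps36 is lower in Δβ SP than in Δβ BM.

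Between the organs, Δβ blasts had more members above 0 than WT blasts, and this comparison shares its Δβ SP libraries with the SP comparison above. In Δβ blasts the log2 difference of SP against BM was above 0 in 68 of 76 members, against 50.4% of all tested genes, with a median of 0.13 against 0.0020. In WT blasts it was above 0 in 43 members against 50% of all tested genes, with a median of 0.02 against -0.000081. limma called no member and no other gene in either comparison (0% each). An unadjusted p under 0.05 was reached upward by 1 member in Δβ (0.654% of all tested genes) and by 2 in WT (4.36%), and downward by 0 members in either (1.12% and 3.91%). edgeR called 0 members and no other gene (0%) in either comparison. DESeq2 called 0 members in either, against 2 genes (0.0175%) in Δβ and 106 genes (0.925%) in WT.

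Same-numbered libraries of the organs deviated together in Δβ blasts but not in WT blasts, so that Δβ organ differences can also be read number by number. Members were higher in SP than in BM in 52, 66 and 53 of 76 cases in Δβ numbers 1, 2 and 3, with medians of 0.09, 0.16 and 0.14 on the log2 scale, while the medians of all tested genes were -0.01, -0.0092 and -0.0036. In each of the 3 Δβ numbers, 32 members lay higher in SP, against 15.7% of all tested genes, and 3 lay lower in each, against 18.7%. WT numbers 1 and 2 had 28 and 21 members higher in SP, with medians of -0.09 and -0.06, and number 3 had 67, with a median of 0.22. Only 3 members were higher in SP in all WT numbers (11% of all tested genes) and 4 were lower (11.3%). Without WT SP replicate 3, 25 of 76 members were above 0 in WT, against 50.9% of all tested genes, with a median of -0.10, and 598 genes but 0 members were called, or 5.21% of all tested genes. Without WT SP replicates 2 and 3, WT SP is again replicate 1 alone, and 31 members were above 0, against 51.1% of all tested genes. Mrpl4 was among the 1147 genes, or 9.99%, then called (log2 difference 0.75, adjusted p = 0.0303, limma). This call rests on 566 normalized counts in that library, where the libraries left out had 373 and 333 and WT BM had 352, 308 and 348.

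Among single members, Mrpl16, an RNA-binding protein of the large subunit, had 386, 427 and 366 normalized counts in Δβ SP and 292, 375 and 270 in Δβ BM (log2 difference 0.34, SE 0.15, adjusted p = 1.0, limma). Mrpl14 had 287, 297 and 237 against 207, 241 and 183 (log2 difference 0.38, SE 0.18), and in both genes the organs overlapped. Read number by number, SP lay above BM in each Δβ number in both genes, as in 32 members in all (15.7% of all tested genes). The SE and p given here come from a fit that does not use the numbers. Mrps10 had 212, 231 and 193 in Δβ SP and 115, 193 and 177 in Δβ BM (log2 difference 0.42, SE 0.21), and its lowest SP value lay just above the highest BM value. Mrpl43, with paired ETS letters before its start, had 713, 780 and 723 in Δβ SP and 649, 662 and 632 in Δβ BM (log2 difference 0.19, SE 0.11). Of its windows 31.6% are shared with other transcripts. The Δβ organs did not overlap in 5 members with SP on top (Mrpl40, Mrpl43, Mrps10, Mrps18a and Mrps31; 2.92% of all tested genes) and in 1 with BM on top (Mrps36; 4.51%). In WT blasts the smallest p belonged to Mrpl27, with 217, 178 and 165 normalized counts in SP and 119, 127 and 146 in BM (log2 difference 0.51, SE 0.17, adjusted p = 0.580, limma). Next came Mrpl55 (0.35, SE 0.16), Mrpl49 (-0.29, SE 0.13) and Mrpl54 (0.28, SE 0.16). WT groups without overlap were found in Mrpl27, Mrpl54 and Mrpl55 with SP on top (5.66% of all tested genes) and in Mrpl49 and Mrps22 with BM on top (5.8%).

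**Figure D5:**
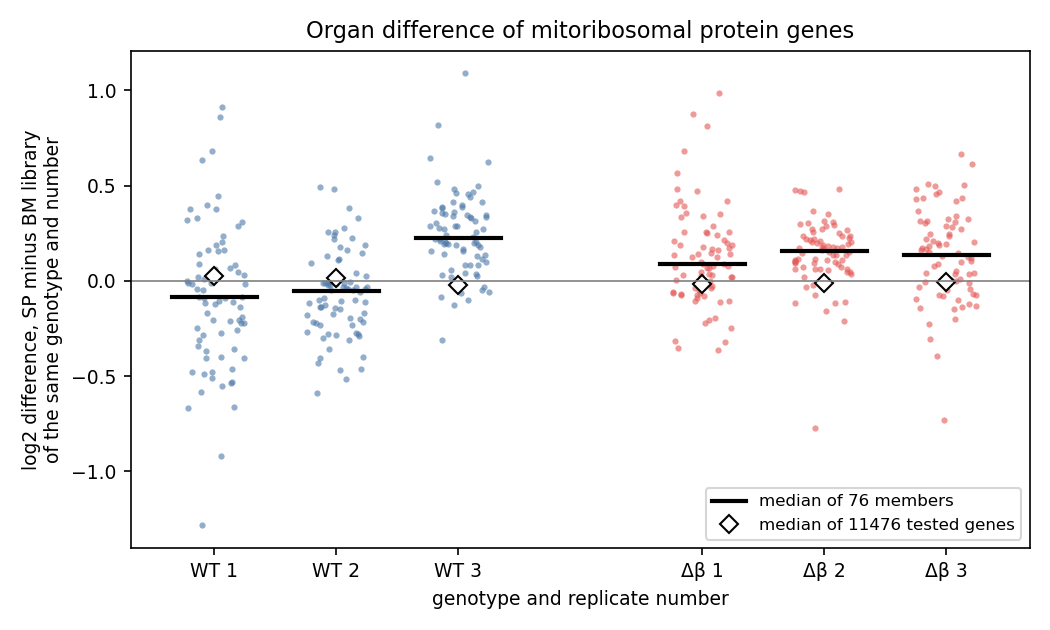
Log2 difference, SP minus BM, between same-numbered libraries (vertical axis) for 76 members (points), with their median (line) and that of 11476 tested genes (diamond), by genotype and replicate number (horizontal axis). The member medians are 0.09 to 0.16 in the 3 Δβ numbers and -0.09, -0.06 and 0.22 in WT.

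The S18 family has 3 mitochondrial paralogs, of which Mrps18a sits in the large subunit and the others in the small subunit. Mrps18a had 328, 263 and 339 normalized counts in WT SP and 340, 364 and 335 in Δβ SP (log2 fold change 0.17, SE 0.14), and 328, 258 and 266 in WT BM and 294, 313 and 299 in Δβ BM (0.10, SE 0.14). Mrps18b lay at 86.9 to 157 normalized counts over the 12 libraries, with log2 fold changes of 0.08 in SP and 0.13 in BM, and 30.2% of its windows are shared with other transcripts. For Mrps18c the values were 447 to 603 normalized counts and 0.05 and 0.11. Per kb, Mrps18c (546) stood above Mrps18a (300) and Mrps18b (105).

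Mrpl12 forms the stalk that binds translation factors and is also known to associate with mitochondrial RNA polymerase. Its levels were 433, 444 and 761 normalized counts in WT SP and 622, 852 and 560 in Δβ SP (log2 fold change 0.34, SE 0.28, adjusted p = 0.551, limma), and 616, 478 and 486 in WT BM against 353, 688 and 589 in Δβ BM (0.00050, SE 0.28). WT SP replicate 3 lay between the Δβ SP libraries. Mrps36 was low, at 8.0, 10.6 and 18.3 normalized counts in WT SP and 11.6, 11.2 and 9.6 in Δβ SP, and at 20.8, 7.9 and 8.1 in the WT and 15.2, 19.9 and 16.6 in the Δβ libraries of BM. At this depth it was the member with the largest SE, 0.45 on the log2 scale in each organ.

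Genes around the mitoribosome were described by lists. Listed as mitoribosomal proteins with other symbols were Dap3, Ptcd3, Chchd1, Aurkaip1 and Gadd45gip1, while Ict1 was placed with the translation factors below. The 5 had log2 fold changes in SP of 0.10, 0.29, 0.35, -0.06 and 0.47, with a median of 0.29, and 2 of 5 were above 0 in BM. Of 26 tested factors of mitoribosome assembly and rRNA maturation, 19 were above 0 in SP (median 0.08) and 16 in BM (median 0.03). Tfb1m, a methyltransferase of the small-subunit rRNA, had 90.0, 108 and 193 normalized counts in WT SP and 205, 206 and 184 in Δβ SP (log2 fold change 0.68, SE 0.25, adjusted p = 0.278, limma). Mtg1, a GTPase of large-subunit assembly, had 205, 217 and 293 against 319, 308 and 273 (0.34, SE 0.15). In both genes WT SP replicate 3 lay above the lowest Δβ SP library.

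Of 15 tested mitochondrial translation factors, 14 were above 0 in SP (median 0.22) and 8 in BM (median 0.03). Mtif2, the initiation factor, had 442, 475 and 593 normalized counts in WT SP and 594, 597 and 638 in Δβ SP without overlap (log2 fold change 0.29, SE 0.13, adjusted p = 0.332, limma). Mtfmt, which formylates the initiator methionyl-tRNA, was the exception in direction, with 259, 182 and 188 in WT SP against 167, 171 and 159 in Δβ SP (-0.32, SE 0.17), and 192, 241 and 176 in WT BM against 133, 126 and 141 in Δβ BM (-0.59, SE 0.17, adjusted p = 1.0, limma). Δβ lay below WT without overlap in both organs.

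Of 17 mitochondrial aminoacyl-tRNA synthetases, 13 were above 0 in SP (median 0.21) and 7 in BM (median -0.0017). Ears2 had 85.5, 94.3 and 152 normalized counts in WT SP and 129, 162 and 135 in Δβ SP (0.40, SE 0.25). Lars2 had 3787, 14388 and 12392 in WT SP and 1905, 866 and 1032 in Δβ SP (-2.88, SE 0.55, adjusted p = 0.096, limma), and 629 to 3342 in BM. Its 2 highest values came from the 2 libraries rich in Rn45s. The part of ribosomal RNA in the Lars2 reads was not tested.

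Of 17 genes of mitochondrial DNA maintenance, transcription and RNA stability, 13 were above 0 in SP (median 0.21) and 11 in BM (median 0.05). Top1mt, the mitochondrial topoisomerase, had 121, 116 and 163 normalized counts in WT SP and 224, 302 and 199 in Δβ SP (0.85, SE 0.29, adjusted p = 0.25, limma). Peo1, which encodes the mitochondrial helicase Twinkle, starts near Mrpl43 and overlaps its annotated exons by 385 bases on the opposite strand. Its values were 182, 190 and 195 against 256, 311 and 250 (0.52, SE 0.21, adjusted p = 0.295, limma). Both genes separated the SP groups. In BM their log2 fold changes were 0.04 and 0.12. No gene of these lists was called in SP, BM or over both organs.

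Among 11 transcription factors and coactivators tied to nuclear genes for mitochondrial proteins, 10 were tested, and 5 were above 0 in SP (median 0.02) and 4 in BM (median -0.03). Pprc1, a coactivator related to PGC-1α, had 471, 451 and 509 normalized counts in WT SP and 741, 782 and 686 in Δβ SP without overlap (log2 fold change 0.62, SE 0.15, adjusted p = 0.169, limma), and a log2 fold change of 0.06 in BM. Myc had 782, 805 and 1538 in WT SP and 886, 1546 and 1440 in Δβ SP (0.34, SE 0.34). Ppargc1a, which encodes PGC-1α, was at most 4.27 normalized counts in any library, and Ppargc1b had 1.0 to 29.3. Nrf1, Gabpa, Gabpb1 and Yy1, which encode factors of the motifs above, had log2 fold changes of -0.12, -0.17, 0.07 and -0.04 in SP and -0.07, -0.04, 0.03 and -0.23 in BM. Max, Esrra and Hcfc1 lay at -0.15, -0.17 and 0.09 in SP and 0.02, -0.30 and 0.01 in BM.

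Cytosolic ribosomal proteins and nucleolar factors are given side by side, without a test of their difference from the members. Of 79 tested cytosolic ribosomal protein genes, 67 were above 0 in SP (median 0.26) and 56 in BM (median 0.06). Of 40 nucleolar ribosome biogenesis factors, 40 were above 0 in SP (median 0.39) and 20 in BM (median -0.0012). In WT blasts, 16 of the 79 and 2 of the 40 were higher in SP than in BM, with medians of -0.13 and -0.17, where 43 of the 76 members were. In Δβ blasts, 56 of the 79 and 38 of the 40 were higher in SP, where 68 of the 76 members were. The Δβ medians were 0.09 and 0.24, beside 0.13 of the members. Within groups, the mitoribosomal protein genes had a median residual SD of 0.19 on the log2 scale (quartiles 0.16 and 0.25). Over all tested genes it was 0.27 (quartiles 0.18 and 0.45). The median levels were 381 and 418 normalized counts, but genes were not matched by level.

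Many members start close to a gene on the opposite strand, either back to back or with overlapping starts, as Mrpl48 and Rab6a do. In the GENCODE M21 annotation (GRCm38), 33 of 76 members, or 43.4%, had a protein-coding gene on the opposite strand starting within 1000 bases, against 17.5% of 10776 tested protein-coding genes. The partners included Ndufs6 of respiratory complex I (next to Mrpl36), Ndufb5 of the same complex (Mrpl47), the mitochondrial seryl-tRNA synthetase gene Sars2 (Mrps12), the chaperonin gene Tcp1 (Mrpl18) and the proteasome gene Psma2 (Mrpl32). Mrpl46 and Mrps11 are partners of each other, with log2 fold changes in SP of -0.07 and 0.06. Of 30 partners tested, Mrpl46 and Mrps11 among them, 20 were above 0 in SP and 14 in BM, against 48.1% and 45.3% of all tested genes. A single partner was called in SP or BM, where 0.105% and 0.0697% of all tested genes were. It was Wdfy1 next to Mrpl44, with a log2 fold change of 0.96 in BM (adjusted p = 0.0226, limma) beside -0.04 of Mrpl44. In SP the value of Wdfy1 was 0.70 (adjusted p = 0.0959, limma) beside 0.24. This pair and the pairs that follow were chosen after their values were seen. Zfp189, the partner of Mrpl50, had a log2 fold change of 0.42 in SP beside 0.40 of Mrpl50, while Fau, the partner of Mrpl49, had -0.17 beside 0.30. Cyb5rl and Sars2 had 0.47 and -0.02 beside 0.01 of Mrpl37 and 0.37 of Mrps12. Differences between a member and its partner were not tested.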

How the data were processed

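The authors deposited a signal value for each gene and library, namely gene counts divided by a size factor, so that each value is a whole multiple (100% within 0.01) of the worth of 1 read. Their processing notes name FastQC, STAR, featureCounts, DESeq2, GRCm38 and mm10 without versions or roles. Another 6 columns without a sample label were not used. Members, lists and naming rules were chosen with earlier results of these data known. Named members are those called, the 4 smallest p per comparison, the highest and lowest of each structural group, the level extremes, the S18 paralogs, Mrpl12 and Mrps36. Neighbours and other named pathway genes were the partners and the 2 smallest p per list, and genes such as Slc5a3 were added after their values were seen.

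Log2 values (pseudocount 1) of genes with a mean of at least 10 were fitted in R 4.3.3 with limma 3.58.1 (eBayes with trend), with a mean per group and no block. p was adjusted over 11476 genes. An exact test of 3 against 3 cannot go below 0.1, so none was used. edgeR 4.0.16 and DESeq2 1.42.0 on recovered reads were alternatives. The procedure was tested on simulated data. Deviations from group means of same-numbered SP and BM libraries correlated across genes at 0.66, 0.61 and 0.63 in Δβ and at -0.01, -0.04 and -0.24 in WT, and those of WT and Δβ at -0.17 to 0.20. Positions, exon lengths and neighbours are from GENCODE M21 and promoters from RefSeq.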

Additional observations from a re-analysis of the deposited data

How the results depend on the processing

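Tried in place of the settings used were pseudocounts of 0.25 or 4, all genes or those with a mean of 50, rescaling by trimmed means or quantiles, no variance trend, edgeR and DESeq2, the libraries of a comparison alone, 12 separate units or an estimated correlation over both organs, the replicate block, each library left out, and, chosen after seeing the data, leaving out WT SP replicates 2 and 3 or the members whose exons overlap another gene. Members called stayed at 0 except without WT SP replicate 3 (6 in SP) and without WT SP replicates 2 and 3 (1 in the WT organ comparison, where WT SP is then 1 library whose spread is taken from the other groups). Leaving out single libraries gave 0 to 6 members called in SP and, for the percent of members above 0 in the WT organ comparison, 32.9% to 75%. With the replicate block, 0 members were called in each comparison. The medians were those without it (0.19 in SP, 0.06 in BM), because a block in this balanced layout leaves differences of group means unchanged. All calls over both organs numbered 55 with the block and 17 without. That block joined WT and Δβ of the same number, whose deviations correlated at only -0.17 to 0.20 within an organ. No other call changed in Δβ, where same-numbered SP and BM libraries deviated together. Of 722 fits of 32 named results, 714 kept direction and side, 1 passed the threshold and 7 turned sign. Many of these fits could not turn a sign. Another minimum mean, no variance trend, the libraries of a comparison alone and the block leave the log2 fold change as it is. As no member was called with the settings used, the side could change only by passing the threshold. The count of 714 is therefore no measure of stability. Mrps6 was 0.97 without WT SP replicate 3. Signs turned in SP for Mrps9 (0.00347 by trimmed means, 0.020 by quantiles, and -0.11 to 0.034 over left-out libraries) and Mrpl54 (-0.24 to 0.080), and in BM for Mrpl48 (-0.42 to 0.033), Mrps5 (-0.32 to 0.11) and Mrps26 (-0.41 to 0.29). DESeq2 called 479 genes in SP where limma called 12, with 0 members. The causes were not tested.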
